A study of Rattus norvegicus with 18 samples.

Results

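The genes described are the nuclear genes for the subunits of the oxidative phosphorylation complexes I to V, measured in rat blood on 18 2-colour microarrays. They were chosen by symbol after array probes had been matched through RefSeq transcripts: names starting with Ndufa, Ndufb, Ndufc, Ndufs or Ndufv (without the Ndufaf assembly factors) for complex I, Sdha to Sdhd for complex II, Uqcr or Cyc1 for complex III, Cox4 to Cox8 for complex IV and Atp5 for complex V. The rule found 96 probes for 77 of the 15443 named genes on the array, and no probe matched Cyc1. Of these, 76 genes were tested: 32 of complex I, 4 of complex II, 8 of complex III, 16 of complex IV and 16 of complex V. Cox8c, the testis form of a complex IV subunit, was not well above background on any of the 18 arrays and was not tested.

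Procainamide is an antiarrhythmic drug that can induce autoimmunity, and the series set its effect in the inbred Brown Norway (BN) strain beside that in Sprague Dawley (SD) rats. Male rats received sterile water (4 BN and 5 SD control arrays) or procainamide at 40 mg/kg (4 BN and 5 SD arrays). Blood was drawn from the venous sinus of the eye at the end of treatment, and total RNA of each sample was labelled with Cy5. The labels name control replicate 1 of the same strain as the Cy3 reference on every array, so that on 1 control array of each strain both dyes should carry the same RNA. The labels do not say whether the arrays of a group are separate animals, so the spread behind every p-value is that among these arrays and may be technical. Cells were not separated. Fewer cells of a type and less RNA per cell cannot be told apart in whole blood RNA.

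Oxidative phosphorylation is the last stage of respiration in the inner mitochondrial membrane. Complex I takes electrons from NADH and complex II from succinate, and both pass them to ubiquinone. Complex III hands them to cytochrome c and complex IV to oxygen, and the proton gradient built on the way drives complex V, the ATP synthase. Most subunits are encoded in the nucleus and a smaller set in mitochondrial DNA, and many nuclear subunit promoters are known to carry sites for the factors NRF1, GABP (an ETS factor) and YY1. Lymphocytes and monocytes in blood hold many active mitochondria, neutrophils have few, and mature red cells have none, although reticulocytes still hold some.

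The promoters of 4 members are shown because they hold each of the motifs named below or, for Cox8b, the TATA box that most of the others lack. Each runs from 250 bases before to 50 bases after the RefSeq start, 5′ to 3′ on the gene's strand in build GRCr8, with matches to the NRF1, ETS, YY1 and TATA motifs in capitals. Ndufa1 lies at chrX:121293506-121293805 (minus strand), Ndufv3 at chr20:9613536-9613835 (plus strand), Atp5pf at chr11:37375052-37375351 (minus strand) and Cox8b at chr1:205408224-205408523 (minus strand).
Ndufa1: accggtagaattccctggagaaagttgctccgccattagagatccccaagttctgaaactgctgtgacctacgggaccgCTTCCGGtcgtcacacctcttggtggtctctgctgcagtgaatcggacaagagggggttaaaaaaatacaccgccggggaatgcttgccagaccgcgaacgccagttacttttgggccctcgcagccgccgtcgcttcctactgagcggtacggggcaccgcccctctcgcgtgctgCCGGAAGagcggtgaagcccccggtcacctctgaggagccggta
Ndufv3: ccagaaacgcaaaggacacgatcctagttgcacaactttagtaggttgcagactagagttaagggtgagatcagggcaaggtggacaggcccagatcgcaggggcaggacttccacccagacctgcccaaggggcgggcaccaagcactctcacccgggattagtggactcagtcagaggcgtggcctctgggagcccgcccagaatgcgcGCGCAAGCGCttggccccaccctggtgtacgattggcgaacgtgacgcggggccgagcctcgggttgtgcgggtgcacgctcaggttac
Atp5pf: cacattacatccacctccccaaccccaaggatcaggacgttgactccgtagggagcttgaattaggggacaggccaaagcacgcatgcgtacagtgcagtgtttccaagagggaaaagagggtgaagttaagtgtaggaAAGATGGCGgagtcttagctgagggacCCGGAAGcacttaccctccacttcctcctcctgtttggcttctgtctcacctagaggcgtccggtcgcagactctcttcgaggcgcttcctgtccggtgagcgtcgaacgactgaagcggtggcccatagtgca
Cox8b: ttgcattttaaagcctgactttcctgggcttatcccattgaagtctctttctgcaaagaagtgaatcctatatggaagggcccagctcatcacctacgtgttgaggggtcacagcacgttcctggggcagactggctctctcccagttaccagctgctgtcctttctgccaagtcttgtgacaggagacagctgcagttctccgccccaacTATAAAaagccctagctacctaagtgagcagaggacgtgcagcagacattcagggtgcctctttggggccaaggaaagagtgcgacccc
In Ndufa1 both matches are to the ETS motif CCGGAAG, the first on the opposite strand, in Ndufv3 the match is to the NRF1 motif (GCGCA, any base, GCGC), in Atp5pf the YY1 motif AAGATGGCG is followed by the ETS motif, and in Cox8b the match is TATAAA. Matches to CCAAT, of which Ndufv3 holds 1 on the opposite strand, are left in lower case.

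Windows of this 300-base length were found for 66 of the 76 members and for 27457 promoters in all, and the motifs were searched on both strands. NRF1 was matched in 18.2% of member promoters and 4.71% of all promoters, the ETS motif in 30.3% and 9.22%, and YY1 in 13.6% and 1.93%. The CCAAT letters were matched in 33.3% of member promoters and 37.7% of all, and TATAAA in 7.58% and 14.3%. The ETS and YY1 motifs can overlap through the letters AAG that they share, but in the Atp5pf promoter they lie apart. The median BN response (log2, defined below) of members with and without a motif was 0.15 and 0.15 for ETS, 0.13 and 0.15 for NRF1, 0.12 and 0.15 for YY1, 0.078 and 0.16 for CCAAT, and 0.092 and 0.16 for TATAAA. Called rises numbered 6 of 20 members with the ETS motif and 8 of the other 46. They numbered 1 of 12 members with NRF1 and 3 of 9 with YY1, with 13 and 11 rises among the members without. For CCAAT they numbered 3 of 22 and for TATAAA 1 of 5, with 11 and 13 rises among the members without. These splits were not tested. These matches describe the letters in these windows only.

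Median Cy5 signal per array ran from 997 to 3187, and in that channel between 73.4% and 87.1% of probes exceeded background clearly. Subunit genes are among the brighter ones: the median member had a mean log2 intensity of 15.0, against 11.6 for all named genes, and no member probe was saturated. Slide 1 held all 5 SD control arrays and SD procainamide arrays 1 to 3, slide 2 the 4 BN control arrays and SD procainamide arrays 4 and 5, and slide 3 the 4 BN procainamide arrays. Slide 2 was scanned on another day than slides 1 and 3. BN control and BN procainamide arrays therefore shared neither slide nor scan day, and within BN these cannot be told apart from the treatment. Only the SD procainamide group was scanned on both days. In every comparison, a fit with scan day as a term takes the day effect from SD procainamide arrays 4 and 5 against 1 to 3. Such a fit cannot separate day from drug in BN or day from strain in untreated blood. Median Cy5 signal ran from 997 to 1986 on BN control arrays and from 1694 to 3187 on BN procainamide arrays. On BN control array 1, where the labels give the same RNA in both dyes, 12 of 76 members lay beyond 0.25 (log2) from 0, from -0.65 for Cox4i2 to 0.53 for Atp5if1. Erythroid marker genes had a median log2 ratio of 1.09 and eosinophil markers of 0.84 on that array although shared RNA should give ratios near 0. On SD control array 1 the members ran from -0.52 (Cox8b) to 0.26 (Cox6b1). White cell markers were present: all 7 T cell, all 8 monocyte and 9 of 10 neutrophil markers were measured.

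In BN blood, some subunit genes of complexes I, III, IV and V were higher after procainamide, and 1 of complex IV was lower. Across the 76 members, 16 rose and 1 fell in the BN response (BN procainamide minus BN control, log2 of Cy5 over Cy3, limma adjusted p under 0.05 over all probes), where 8.99% of all named genes rose and 13.8% fell. Estimates lay above 0 for 61 members and below 0 for 15, with a median of 0.15, while the median over all named genes was -0.019. Among the 2491 named genes as bright as most members (mean log2 intensity of 14 or more, which holds 68 members), 12.0% rose, 7.15% fell and the median was 0.038. The treated arrays lay wholly above the control arrays for 25 members and wholly below for 1, against 8.18% and 11.8% of all named genes. By complex, 5 of 32 rose in complex I (median 0.17), 0 of 4 in complex II (median 0.14, 1 with an unadjusted limma p under 0.05), 2 of 8 in complex III (median 0.093), 5 of 16 in complex IV (median 0.15, with 1 lower) and 4 of 16 in complex V (median 0.17). With scan day as a term, 0 of 76 members passed limma's threshold (5 at an unadjusted p under 0.05) and the median was 0.068. Over all probes that fit called 209 of 26446, and its day effect comes from the SD procainamide arrays alone. Fitted on the BN arrays alone, 4 members passed, where 2801 of 26446 probes were called. Of 15 called members followed through every setting, Cox7b, Atp5mg, Atp5pb, Cox6b2 and Cox8a lost their call with median centring, and Ndufa9, Uqcrc2 and Cox8a on the scanner software's own ratios. Ndufb3, Cox7b, Cox5a, Atp5mg and Atp5pb lost it on the Cy5 signal alone, and Ndufa10l1, Ndufv3 and Uqcrb when the probes of a gene were averaged. With array brightness (the log2 median Cy5 signal) as a term the count was 0 (14 at an unadjusted p under 0.05), with a median of 0.12. Over all probes 685 of 26446 were called with that term, against 5757 without it.

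The rise was carried unevenly by the treated arrays. On BN procainamide arrays 2 and 3 the median member stood at 0.17 and 0.18 and 85.5% of members lay above 0 on each. On BN procainamide arrays 1 and 4 the median was -5.4e-05 and 0.00087, with 50% and 51.3% of members above 0. BN control arrays had medians from -0.099 to -0.050, so that each of the 4 treated arrays exceeded each control array in this median over members. Complex I was at 0.17 and 0.18 on arrays 2 and 3 but -0.030 and -0.053 on arrays 1 and 4. For complex V the treated arrays ran from 0.00087 to 0.18, above control arrays at -0.090 to -0.022. Neutrophil markers were also high on treated arrays 2 and 3 (median log2 ratio 0.86 and 0.94), and on array 4 (0.64) but not on array 1 (-0.49). On treated arrays 1 to 4 monocyte markers were at -0.42, 0.29, 0.63 and -0.27. T cell markers were at -0.16, 0.14, 0.24 and -0.21, and NK cell markers at -0.31, 0.62, 0.099 and -0.66. B cell markers were at -0.77, -0.47, -0.45 and -0.25, and eosinophil markers at -2.72, -1.72, -0.74 and -1.95. The part of these cell types in the subunit values was not tested.

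**Figure D1:**
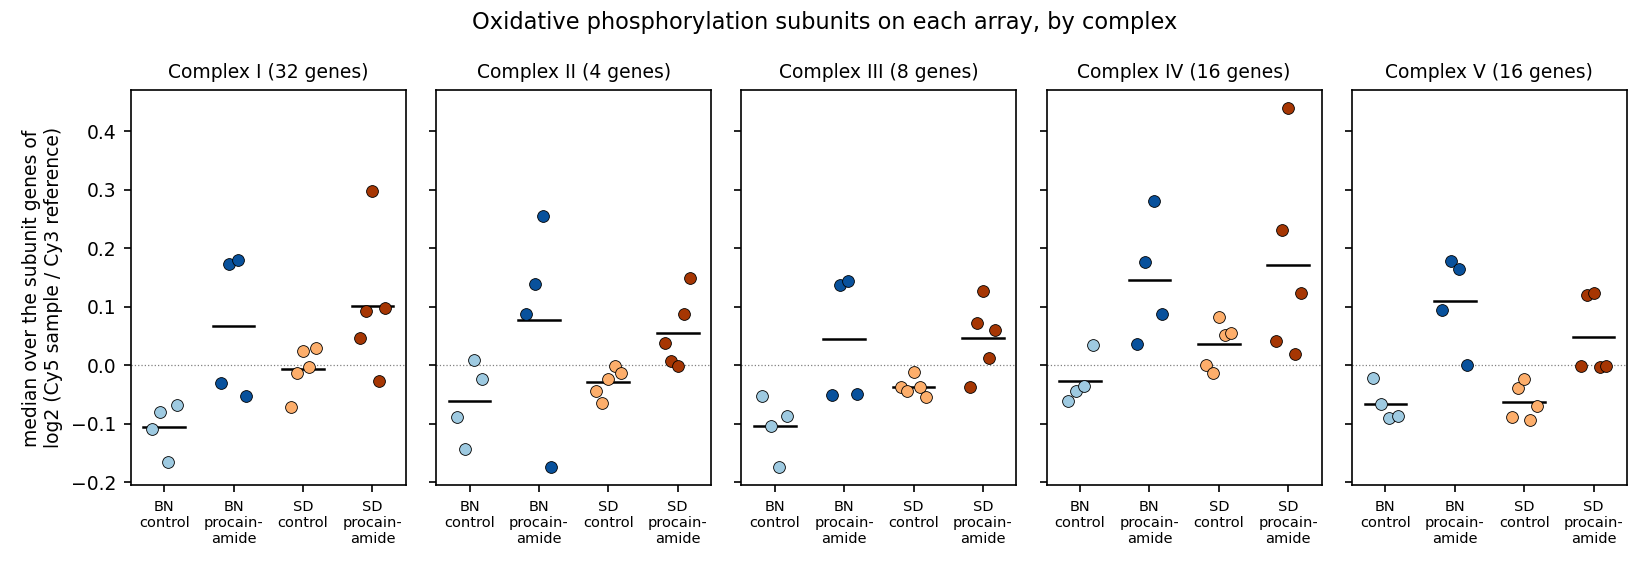
Median log2 ratio (Cy5 sample over Cy3 reference) over the subunit genes of each complex on each of the 18 arrays, 1 panel per complex; points are arrays and bars are group means. In complex I, BN procainamide arrays 2 and 3 stood at 0.17 and 0.18, whereas arrays 1 and 4 stood at -0.030 and -0.053, and SD procainamide array 3 reached 0.30.

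**Figure D2:**
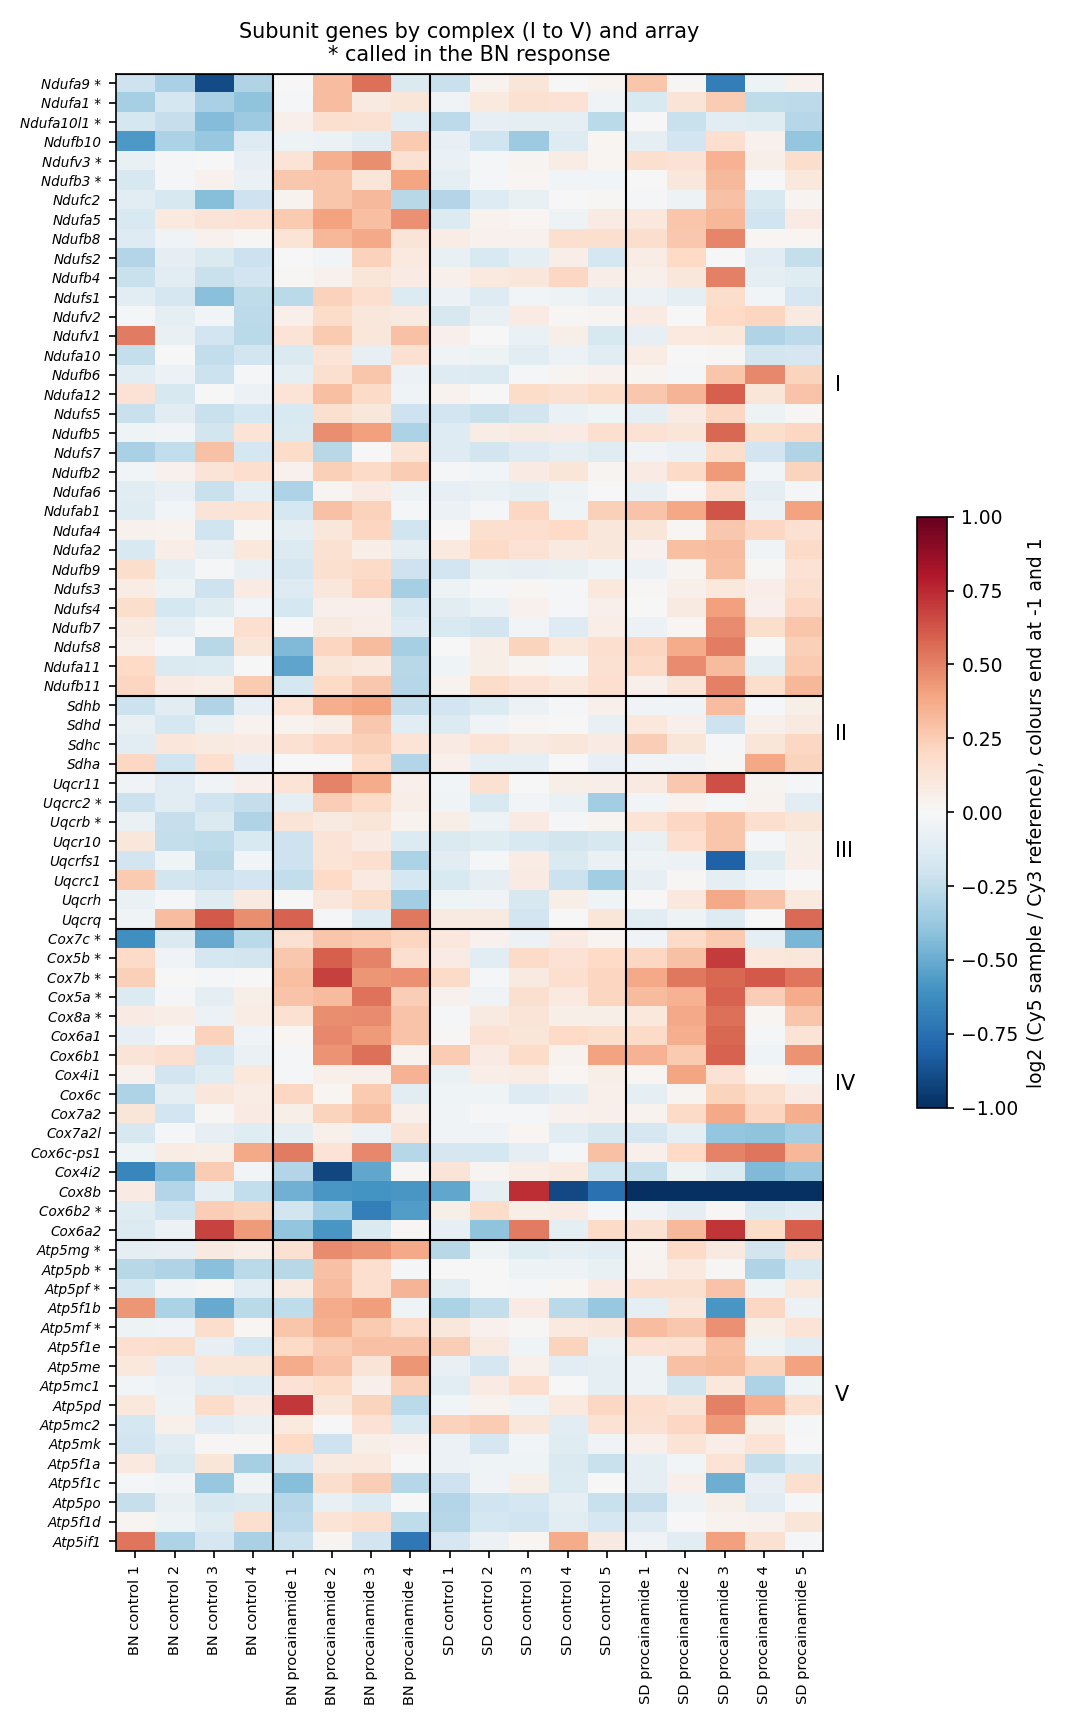
Log2 ratio of all 76 tested subunit genes on the 18 arrays, ordered by complex and, within a complex, by BN response; red is above and blue below the reference, and a star marks the 17 genes called in the BN response. Most complex I genes were above 0 on BN procainamide arrays 2 and 3 (90.6% on each), whereas Cox6b2, Cox6a2 and Cox4i2 of complex IV had estimates of -0.48, -0.50 and -0.21, and Cox8b was not well above background on any BN procainamide array.

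Complex I members that rose in BN were Ndufa10l1, Ndufa1, Ndufv3, Ndufb3 and Ndufa9, all of them accessory subunits or copies of one. Ndufa1, a small membrane-anchored subunit needed for complex I assembly, had log2 ratios of -0.34, -0.18, -0.32 and -0.40 on the 4 BN control arrays and -0.013, 0.31, 0.092 and 0.12 on the 4 procainamide arrays. All treated arrays lay above all control arrays, and the difference was 0.44 ± 0.11 (SE, 95% interval 0.19 to 0.68, limma adjusted p = 0.011), a 1.35-fold rise. Ndufa9, a peripheral arm subunit near the ubiquinone site, stood at -0.20, -0.32, -0.90 and -0.30 in controls and at -0.00092, 0.31, 0.55 and -0.15 after the drug. Control array 3 was the lowest and treated array 3 the highest, and the groups did not overlap. The difference was 0.61 ± 0.19 (SE, 95% interval 0.20 to 1.02, limma adjusted p = 0.0317). Without BN control array 3 it was 0.45 (limma adjusted p = 0.107), and the call was also lost without treated array 2 or 3.

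For Ndufv3, an accessory subunit of the NADH-binding module, BN controls were at -0.073, -0.0085, -0.0043 and -0.08 and treated arrays at 0.14, 0.35, 0.47 and 0.15. Treated arrays 2 and 3 were the higher pair and no array overlapped, for a difference of 0.32 ± 0.084 (SE, 95% interval 0.14 to 0.50, limma adjusted p = 0.0118). Ndufb3, a subunit of the membrane arm, was at -0.16, -0.014, 0.04 and -0.064 in controls and at 0.27, 0.28, 0.12 and 0.40 in treated arrays. Here treated array 4 was the highest and array 3 the lowest of the treated group, and the difference was 0.32 ± 0.084 (SE, 95% interval 0.14 to 0.50, limma adjusted p = 0.0122). Ndufa10l1, a copy of the accessory subunit gene Ndufa10 that may share hybridisation with it, was at -0.18, -0.23, -0.43 and -0.36 in controls and at 0.049, 0.16, 0.15 and -0.11 after procainamide. The groups did not overlap and differed by 0.36 ± 0.09 (SE, 95% interval 0.17 to 0.55, limma adjusted p = 0.00848). Of the other 27 complex I genes none passed the threshold, and 13 of the 32 had an unadjusted limma p under 0.05. The lowest estimate in the complex was -0.16 for Ndufb11, and 25 of 32 estimates lay above 0. Ndufb10 (0.36, adjusted p = 0.0517 in limma) lay just beyond the threshold although its groups did not overlap. The dimmer of its 2 probes gave -0.042 (limma adjusted p = 0.791).

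Complex II, succinate dehydrogenase, also serves the citric acid cycle, and none of its 4 members passed the test in BN. Sdhb, the iron-sulphur subunit, is given because it came nearest, and was chosen after its values were seen. It was at -0.22, -0.11, -0.30 and -0.079 in controls and 0.14, 0.36, 0.40 and -0.24 after the drug. Treated array 4 lay among the controls while arrays 1 to 3 lay above them, and the difference was 0.34 ± 0.12 (SE, 95% interval 0.08 to 0.60, limma adjusted p = 0.0539). The flavoprotein Sdha differed by -0.051 ± 0.12 and the membrane anchors Sdhc and Sdhd by 0.14 ± 0.074 and 0.14 ± 0.091 (SE).

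In complex III, Uqcrb and Uqcrc2 rose in BN. Uqcrb, a small subunit at the ubiquinone site, was at -0.066, -0.23, -0.15 and -0.30 in controls and at 0.13, 0.091, 0.12 and 0.039 in treated arrays, which were tightly grouped and all above the controls. The difference was 0.28 ± 0.07 (SE, 95% interval 0.13 to 0.43, limma adjusted p = 0.00878). Uqcrc2, a core protein of the matrix side, was at -0.22, -0.10, -0.20 and -0.24 and -0.10, 0.25, 0.19 and 0.07, with treated array 1 level with the highest control to the second decimal. It differed by 0.29 ± 0.089 (SE, 95% interval 0.10 to 0.48, limma adjusted p = 0.0262). The call was lost without control array 3 or 4 or treated array 2 or 3, with a lowest difference of 0.24 without treated array 2. The remaining 6 members ran from -0.095 (Uqcrq) to 0.29 (Uqcr11).

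Complex IV held the largest number of calls for its size and also the 1 fall. Cox7c, a small accessory subunit, had the largest rise of the complex: -0.61, -0.14, -0.51 and -0.27 on BN control arrays and 0.16, 0.27, 0.26 and 0.21 on treated arrays. The 4 treated arrays lay within a narrow band above all controls, and control arrays 1 and 3 were the low ones. The difference was 0.61 ± 0.13 (SE, 95% interval 0.33 to 0.89, limma adjusted p = 0.00326), or 1.53-fold. Control array 1, at -0.61, is the array whose 2 dyes should carry the same RNA. Without it the difference was 0.53 and was still called.

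Cox7b, another small accessory subunit, was at 0.24, 0.0071, -0.012 and 0.0057 in BN controls, where array 1 stood apart, and at 0.30, 0.68, 0.44 and 0.46 after procainamide. The groups did not overlap and differed by 0.41 ± 0.092 (SE, 95% interval 0.21 to 0.61, limma adjusted p = 0.00451). The call was lost with median centring (0.26) and on the Cy5 signal alone (0.16). Cox5a, the subunit that binds a thyroid hormone metabolite, was at -0.14, -0.014, -0.089 and 0.062 and 0.29, 0.32, 0.54 and 0.25, with no overlap. Its difference was 0.39 ± 0.091 (SE, 95% interval 0.20 to 0.59, limma adjusted p = 0.00556). On the Cy5 signal alone, however, Cox5a differed by -0.00029 between the same groups. Cox5b and Cox8a also rose, by 0.43 ± 0.13 and 0.30 ± 0.11 (SE, limma adjusted p = 0.0285 and 0.0491), although the groups overlapped for Cox5b. Cox8a kept its call only without treated array 1 when single BN arrays were left out, and lost it in the other 7 fits. Cox6b2, the testis form of the subunit that bridges the enzyme's monomers, was the 1 member that fell: -0.12, -0.20, 0.25 and 0.22 in controls against -0.19, -0.34, -0.68 and -0.56 in treated arrays. Treated array 1 overlapped the controls and arrays 3 and 4 were the lowest. The difference was -0.48 ± 0.11 (SE, 95% interval -0.72 to -0.24, limma adjusted p = 0.00628), and with median centring it was -0.27 and was not called.

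Among complex V genes the 4 that rose belong to the stalk and the membrane sector. Atp5mg, subunit g of the membrane part, was at -0.10, -0.086, 0.093 and 0.068 in BN controls and 0.15, 0.48, 0.44 and 0.38 after the drug, with no overlap. It differed by 0.37 ± 0.10 (SE, 95% interval 0.16 to 0.57, limma adjusted p = 0.0111), but by -0.17 on the Cy5 signal alone. Atp5pf, coupling factor 6 of the peripheral stalk, was at -0.17, -0.037, 0.014 and -0.10 and 0.093, 0.31, 0.17 and 0.34, again without overlap, and differed by 0.30 ± 0.085 (SE, 95% interval 0.12 to 0.49, limma adjusted p = 0.0165). It lost its call without treated array 2 or 4. For Atp5pb, subunit b of the same stalk, the values were -0.28, -0.30, -0.42 and -0.27 and -0.27, 0.30, 0.16 and -0.018. Treated array 1 was level with the highest control, and treated array 2 was the highest. Its difference of 0.36 ± 0.11 (SE, 95% interval 0.12 to 0.59, limma adjusted p = 0.0262) turned to -0.037 on the Cy5 signal alone, and it lost its call without control array 3 or treated array 2 or 3. Atp5mf, subunit f, rose by 0.25 ± 0.086 (SE, limma adjusted p = 0.0487). The inhibitor Atp5if1, which stops ATP hydrolysis when respiration fails, had the lowest estimate of the complex at -0.20 ± 0.19 and did not pass the test. The head and central stalk genes Atp5f1a, Atp5f1b, Atp5f1c, Atp5f1d and Atp5f1e were not called.

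In SD blood most members also had estimates above 0, but 2 passed the test. The median over the 76 members was 0.13 in the SD response, against -0.0073 over all named genes, and 62 estimates lay above 0. Only Cox7b rose and only Cox8b fell, where 1.42% of all named genes rose and 1.76% fell, and 19 members had an unadjusted limma p under 0.05. Among the 2491 bright genes 1.85% rose and 1.89% fell. The treated SD arrays lay wholly above the controls for 5 members and wholly below for 1, against 4.38% and 4.54% of all named genes. Complex medians ran from 0.096 (complex II) to 0.13 (complex V). SD procainamide array 3 stood highest, with a median member of 0.28 and 82.9% of members above 0, while array 4 was at 0.0016 with 50% above 0. SD control arrays had medians from -0.056 to 0.027. Without SD procainamide array 3 the median response was 0.079.

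Cox7b was at 0.19, -0.012, 0.092, 0.17 and 0.21 on the SD control arrays and 0.38, 0.52, 0.58, 0.61 and 0.54 on the SD procainamide arrays. The groups did not overlap, and the difference was 0.40 ± 0.082 (SE, 95% interval 0.22 to 0.57, limma adjusted p = 0.0152), close to the 0.41 seen in BN. Within slide 1, which holds 5 SD control and 3 SD procainamide arrays, it was 0.36 with a limma adjusted p of 0.0748. With scan day as a term it was 0.36 (adjusted p = 0.0858 in limma). That estimate is the slide 1 contrast by construction, since the day term absorbs SD procainamide arrays 4 and 5. With median centring in place of loess the difference was 0.62. On the Cy5 signal alone it was 0.21 and was not called. Without SD control array 2, the lowest control, the adjusted p was 0.0617.

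Cox8b, the heart and skeletal muscle form of a complex IV subunit, was well above background on 9 of 18 arrays. In SD it was at -0.52, -0.094, 0.74, -0.90 and -0.74 on control arrays and at -1.41, -1.44, -1.45, -1.32 and -1.16 on treated arrays, of which 2 of 5 were well above background. Control array 3 was high and the treated arrays lay together below all controls, for a fitted difference of -1.05 ± 0.21 (SE, 95% interval -1.51 to -0.59, limma adjusted p = 0.0136). With 3 of the 5 treated arrays near background the size of this fall is poorly set, and on the scanner software's own ratios it was -1.96. The call was lost without SD control array 2 (limma adjusted p = 0.0515), and within slide 1 the difference was -1.13 with a limma adjusted p of 0.129. In BN, 2 of 4 control arrays and 0 of 4 treated arrays were well above background, so the size of the difference is poorly set. It did not pass the test (limma adjusted p = 0.222). As measured in Cy5, the mean of all 4 controls, of which 2 were near background, was 1.24-fold above the treated mean. With the treated arrays near background this is not a firm size. Of the 8 muscle markers 7 were measured, and in SD 0 of 7 passed the test while all 7 estimates lay below 0 (median -0.31). Their median log2 ratio was 1.00 on SD control array 3 and ran from -0.76 to -0.31 on the other SD control arrays, and the summed Cy5 level of the list was 14.2 to 15.1 (log2) in SD controls and 13.8 to 14.4 in treated SD arrays. The part of muscle RNA in the Cox8b values was not tested. Without SD control array 3 the Cox8b difference was -0.79 and was still called.

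The strain difference in response asks whether BN and SD answered differently, and is the BN response minus the SD response. Over the 76 members 2 passed the test, both higher in BN, where 3.15% of all named genes were higher and 7.54% lower (4.30% and 2.49% of the bright genes). The median difference was 0.071, against 0.0050 over all named genes and 0.071 over the 2491 bright ones. Cox7c was at 0.10, 0.039, -0.06, 0.08 and 0.024 on SD control and -0.035, 0.19, 0.26, -0.10 and -0.46 on SD procainamide arrays, which overlapped widely, and its SD response was -0.067 ± 0.12 (SE). Its strain difference was 0.68 ± 0.17 (SE, 95% interval 0.30 to 1.05, limma adjusted p = 0.0189). Ndufa1 was at -0.031, 0.10, 0.15, 0.15 and -0.035 in SD controls and -0.15, 0.13, 0.26, -0.25 and -0.26 in treated SD arrays, again overlapping, with an SD response of -0.12 ± 0.10 (SE) and a strain difference of 0.56 ± 0.15 (SE, 95% interval 0.23 to 0.88, limma adjusted p = 0.0249). Both calls were lost on the scanner software's own log ratios, with brightness as a term and with scan day as a term, where in the last the differences were 0.095 for Cox7c and 0.090 for Ndufa1. The Ndufa1 call was also lost with median centring (limma adjusted p = 0.0746) and without BN control array 4 or BN procainamide array 2. SD procainamide arrays 4 and 5, both from slide 2, were the lowest treated SD arrays for both genes.

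The lowest strain difference was that of Cox6a2, the heart and muscle form of a complex IV subunit, at -0.87 ± 0.28 (SE, 95% interval -1.47 to -0.28, limma adjusted p = 0.0502). In BN it was at -0.14, -0.055, 0.68 and 0.42 on control and -0.39, -0.58, -0.15 and 0.0084 on treated arrays, and in SD at -0.084, -0.40, 0.52, -0.093 and 0.19 and 0.15, 0.33, 0.71, 0.19 and 0.60. Groups overlapped in both strains, and neither the BN response (-0.50 ± 0.21) nor the SD response (0.37 ± 0.18, SE) was called. For 67 of the 76 members the 95% interval of the strain difference included 0. Cox7b gave 0.014 with an interval from -0.25 to 0.28, and Cox5a, at 0.046, -0.037, 0.16, 0.10 and 0.22 in SD controls and 0.32, 0.35, 0.59, 0.25 and 0.37 in treated SD arrays, gave 0.11 with an interval from -0.15 to 0.38. The 2 responses come from separate control groups.

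**Figure D3:**
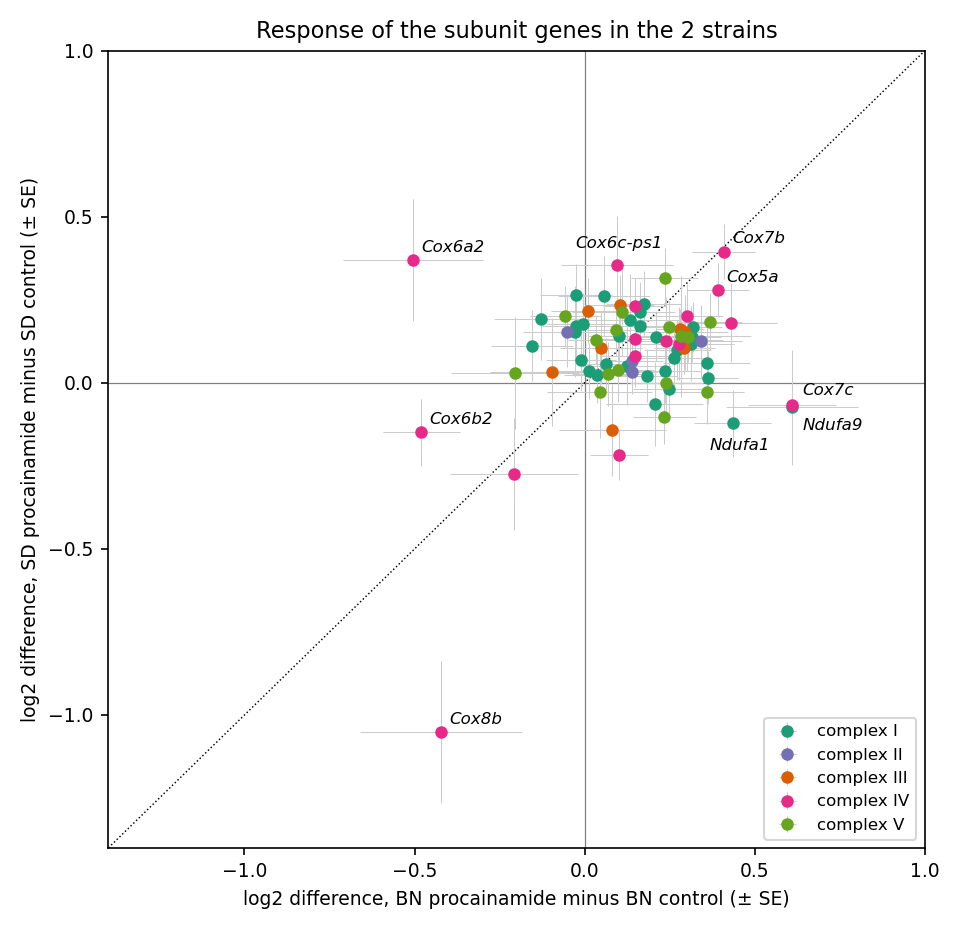
Log2 difference after procainamide in BN (x axis) and in SD (y axis) for the 76 subunit genes, coloured by complex, with standard errors as grey bars and the line of equality dotted. Cox7b lies near the line at 0.41 and 0.40, Cox7c, Ndufa1 and Ndufa9 lie to its right with SD responses below 0, and Cox8b is lowest at -1.05 in SD.

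**Figure D4:**
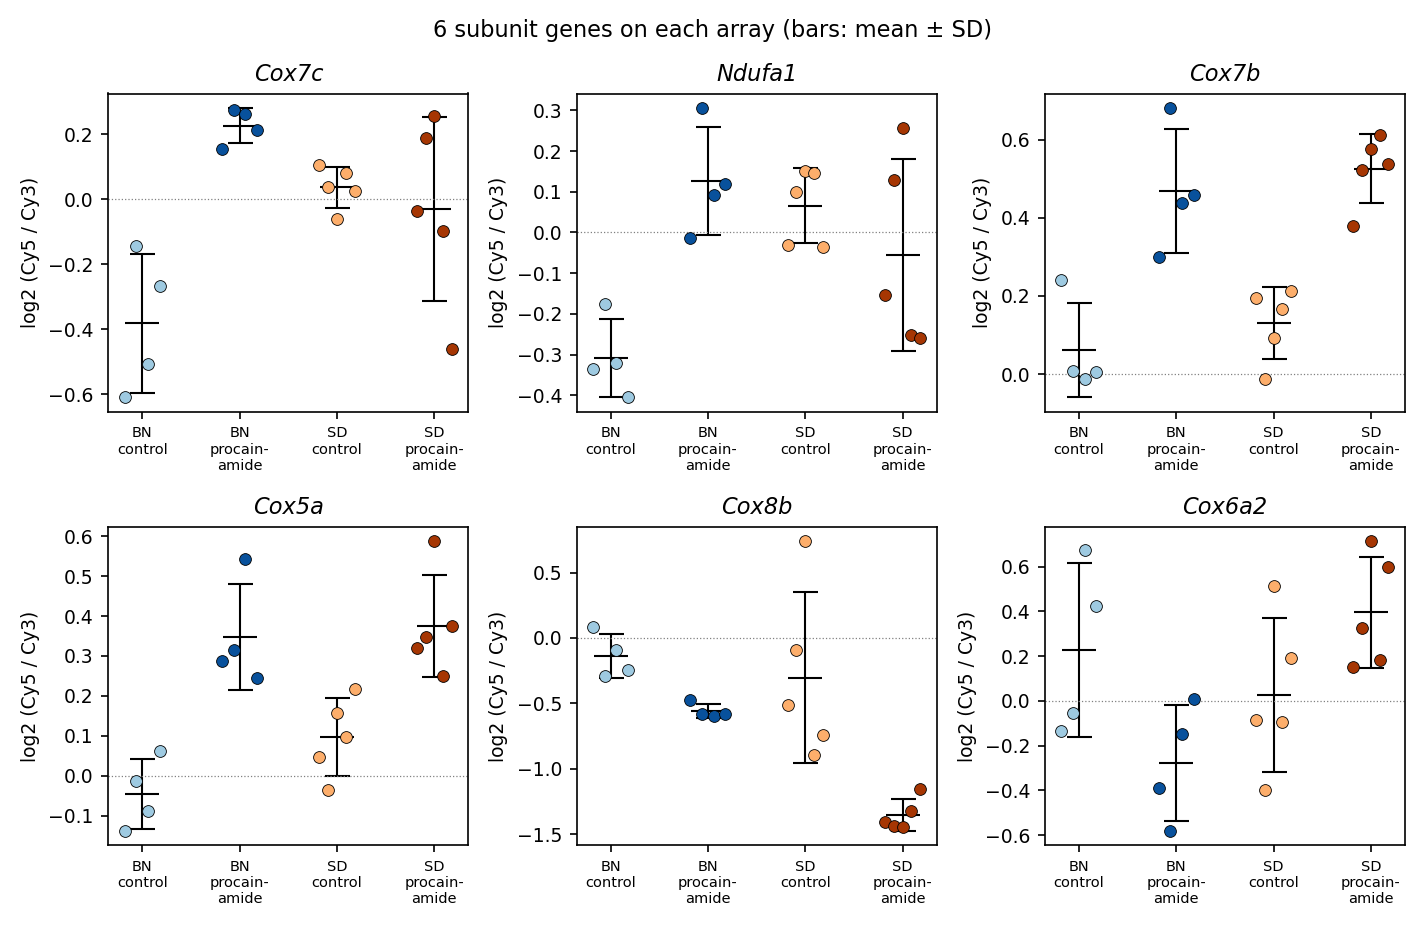
Log2 ratio (Cy5 sample over Cy3 reference) of 6 subunit genes on each array, by group, with mean ± SD (n = 4 for the BN and 5 for the SD groups). Cox7c separated by treatment in BN but not in SD, Cox7b separated in both strains, and in SD all treated Cox8b values, at -1.45 to -1.16, lay below the controls.

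More members were called between untreated BN and SD blood than in either drug response. The same held over all probes, with 10183 called here, 5757 in the BN response and 727 in the SD response. Because each strain had its own reference, the strains were compared on the Cy5 level (log2, normalised between arrays), and 9 of 76 members were higher and 12 lower in BN than in SD, where 16.3% of all named genes were higher and 20.5% lower (7.07% and 19.3% of the bright genes). BN controls lay wholly above SD controls for 10 members and wholly below for 20, against 14.8% and 19.8% of all named genes. The median was -0.067, against -0.060 over all named genes. In complex I, 1 member was higher and 7 lower, in complex II 2 were higher and 0 lower, in complex III 1 and 1, in complex IV 3 and 3, and in complex V 2 and 1. On the scanner software's processed Cy5 signal the split was 3 higher and 11 lower, where 4952 of 26446 probes were higher and 5022 lower. BN control arrays and SD control arrays came from different slides and scan days. With scan day as a term, its effect taken from the SD procainamide arrays alone, 0 members passed limma's threshold (5 at an unadjusted p under 0.05). In that fit 372 of 26446 probes were called.

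Ndufb10, an accessory subunit of the membrane arm, had Cy5 levels of 14.19, 14.53, 14.39 and 14.66 (log2) on the 4 BN control arrays and 15.32, 15.23, 15.27, 15.37 and 15.41 on the 5 SD control arrays. Every BN array lay below every SD array, for a difference of -0.88 ± 0.12 (SE, 95% interval -1.14 to -0.62, limma adjusted p = 6.16e-05), a 1.84-fold difference. Ndufab1, the mitochondrial acyl carrier protein that also serves fatty acid and lipoate synthesis, stood at 14.52, 14.63, 14.79 and 14.81 in BN and 14.04, 14.13, 14.24, 13.99 and 14.19 in SD. BN was higher without overlap, by 0.57 ± 0.12 (SE, 95% interval 0.32 to 0.82, limma adjusted p = 0.0013). Ndufb10, Ndufab1, Ndufb4, Ndufa10l1 and Atp5mg each have a second probe that did not show the same, as given further on. Ndufa6, an accessory subunit that holds an acyl carrier protein, had levels of 14.53, 14.55, 14.44 and 14.52 and 14.87, 14.89, 14.87, 14.92 and 14.86, lower in BN without overlap, for a difference of -0.37 ± 0.085 (SE, 95% interval -0.55 to -0.19, limma adjusted p = 0.00267). Ndufb4, of the membrane arm, was at 15.28, 15.36, 15.19 and 15.26 and 15.54, 15.60, 15.58, 15.73 and 15.72, also lower in BN on all arrays, for a difference of -0.36 ± 0.082 (SE, 95% interval -0.54 to -0.18, limma adjusted p = 0.0027). Ndufa10l1 was also lower in BN, with Cy5 levels of 14.52, 14.39, 14.28 and 14.27 against 14.79, 14.82, 14.89, 14.81 and 14.62 and a difference of -0.42 ± 0.094 (SE, adjusted p = 0.00245 in limma).

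Cox5a was the complex IV subunit most clearly higher in BN, with Cy5 levels of 14.65, 14.82, 14.76 and 14.87 in BN controls and 14.42, 14.36, 14.36, 14.44 and 14.43 in SD controls. No arrays overlapped and the difference was 0.37 ± 0.081 (SE, 95% interval 0.20 to 0.54, limma adjusted p = 0.00198). Cox6c-ps1, annotated as a pseudogene of Cox6c, was the highest member by estimate, at 0.66 ± 0.17, and both of its probes were called. Cox8b and Cox6a2, the muscle forms, were lower in BN, with differences of -0.86 ± 0.23 and -0.65 ± 0.19 (SE, adjusted p = 0.00746 and 0.0125 in limma). For Cox8b 2 of the 4 BN control arrays were well above background, and its estimate was -1.37 on the scanner software's processed Cy5 and -0.62 without SD control array 3, where the muscle markers were high. Sdhc and Sdhd, the membrane anchors of complex II, were higher in BN by 0.19 and 0.24. In complex V, Atp5f1b and Atp5mg were higher by 0.39 and 0.32 and Atp5mc2 was lower, at -0.27. The second probe of Atp5mc2 was not called.

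Tissue forms of the same subunit were set side by side by their responses, and differences between paired forms were not tested. Cox4i1, the general form of subunit 4, was at 0.041, -0.19, -0.12 and 0.10 on BN control and -0.023, 0.052, 0.053 and 0.35 on BN procainamide arrays, and at -0.068, 0.067, 0.072, 0.017 and 0.056 on SD control and 0.018, 0.39, 0.15, 0.017 and -0.028 on SD procainamide arrays. Its differences, 0.15 ± 0.10 in BN and 0.081 ± 0.093 in SD (SE), were not called. Cox4i2, the lung form, which low oxygen induces, was at -0.65, -0.44, 0.25 and -0.031 on BN control and -0.29, -0.91, -0.52 and 0.013 on BN procainamide arrays, and at 0.13, 0.026, 0.063, 0.10 and -0.20 on SD control and -0.25, -0.054, -0.14, -0.44 and -0.38 on SD procainamide arrays. It differed by -0.21 ± 0.19 in BN and -0.28 ± 0.17 in SD (SE), again without a call. Cox6a1, the general form of subunit 6a, was at -0.079, -0.014, 0.23 and -0.039 on BN control and 0.018, 0.48, 0.43 and 0.28 on BN procainamide arrays, and at 0.014, 0.15, 0.12, 0.20 and 0.17 on SD control and 0.19, 0.36, 0.57, -0.021 and 0.14 on SD procainamide arrays. Its estimates were 0.28 ± 0.12 in BN and 0.12 ± 0.11 in SD (SE) and neither was called, where those of the muscle form Cox6a2 had opposite signs in the strains. Cox6b1, the general form of subunit 6b, was at 0.13, 0.17, -0.17 and -0.064 on BN control and -0.009, 0.45, 0.55 and 0.037 on BN procainamide arrays, and at 0.26, 0.083, 0.19, 0.035 and 0.40 on SD control and 0.34, 0.26, 0.59, -0.045 and 0.45 on SD procainamide arrays. It gave 0.24 ± 0.15 in BN and 0.13 ± 0.13 in SD (SE), without a call, beside the BN fall of the testis form Cox6b2.

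Cox8a, the general form of subunit 8, was at 0.085, 0.067, -0.06 and 0.075 on BN control and 0.15, 0.47, 0.47 and 0.28 on BN procainamide arrays, and at -0.011, 0.087, 0.13, 0.057 and 0.056 on SD control and 0.10, 0.38, 0.55, 0.021 and 0.28 on SD procainamide arrays. It rose in BN and gave 0.20 ± 0.094 (SE) in SD, while the muscle form Cox8b fell in SD. Cox7a2, the liver form of subunit 7a, was at 0.12, -0.19, 0.013 and 0.084 on BN control and 0.055, 0.22, 0.30 and 0.047 on BN procainamide arrays, and at -0.037, -0.013, -0.011, 0.046 and 0.048 on SD control and 0.033, 0.19, 0.38, 0.22 and 0.36 on SD procainamide arrays. It gave 0.15 ± 0.093 in BN and 0.23 ± 0.083 in SD (SE), neither called. Its dimmer probe had the opposite sign in BN, as given further on. Cox7a2l, which links complexes III and IV into supercomplexes, was at -0.16, -0.016, -0.084 and -0.12 on BN control and -0.10, 0.048, -0.056 and 0.13 on BN procainamide arrays, and at -0.033, -0.035, 0.018, -0.10 and -0.16 on SD control and -0.17, -0.091, -0.39, -0.40 and -0.34 on SD procainamide arrays. It gave 0.10 ± 0.084 in BN and -0.22 ± 0.075 in SD (SE), neither called. Ndufa4, counted with complex I by its symbol but now known as a complex IV subunit, was at 0.044, 0.036, -0.20 and 0.011 on BN control and -0.10, 0.12, 0.21 and -0.20 on BN procainamide arrays, and at 0.0055, 0.16, 0.16, 0.20 and 0.11 on SD control and 0.12, 0.01, 0.27, 0.21 and 0.15 on SD procainamide arrays. It gave 0.036 ± 0.10 in BN and 0.025 ± 0.085 in SD (SE), without a call. Of the genes for the c ring of the ATP synthase, which have different import sequences and the same mature protein, Atp5mc1 gave 0.23 ± 0.092 in BN and -0.10 ± 0.082 in SD and Atp5mc2 0.10 ± 0.11 in BN and 0.038 ± 0.09 in SD (SE), with no call in either response.

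For 16 members more than 1 probe was tested, and a gene's value above is that of its brightest probe. Atp5mg was called in the BN response on both probes (0.37 and 0.39). Ndufv3, Uqcrb, Ndufa10l1 and Atp5mf were called on 1 probe only, and the other probe of Uqcrb lay at -0.13. In untreated blood the 2 Ndufb10 probes gave -0.88 and 0.069, those of Ndufab1 0.57 and -0.39 (both called), and those of Uqcrb -0.15 and 0.76. The second probes of Ndufa10l1 (0.027), Ndufb4 (-0.058) and Atp5mg (0.0075) were not called there, with limma adjusted p = 0.906, 0.575 and 0.934. For those genes the strain difference at baseline therefore depends on the probe, and probe sequences were not used here. The second probe of Atp5mc2 had the same sign in untreated blood (-0.15) but was not called (limma adjusted p = 0.246). Atp5mk was called in the BN response on the dimmer probe alone (0.25, against 0.092 on the brighter). The dimmer Cox7a2 probe gave -0.23 in the BN response and 0.28 in the SD response, neither called (limma adjusted p = 0.184 and 0.185).

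**Figure D5:**
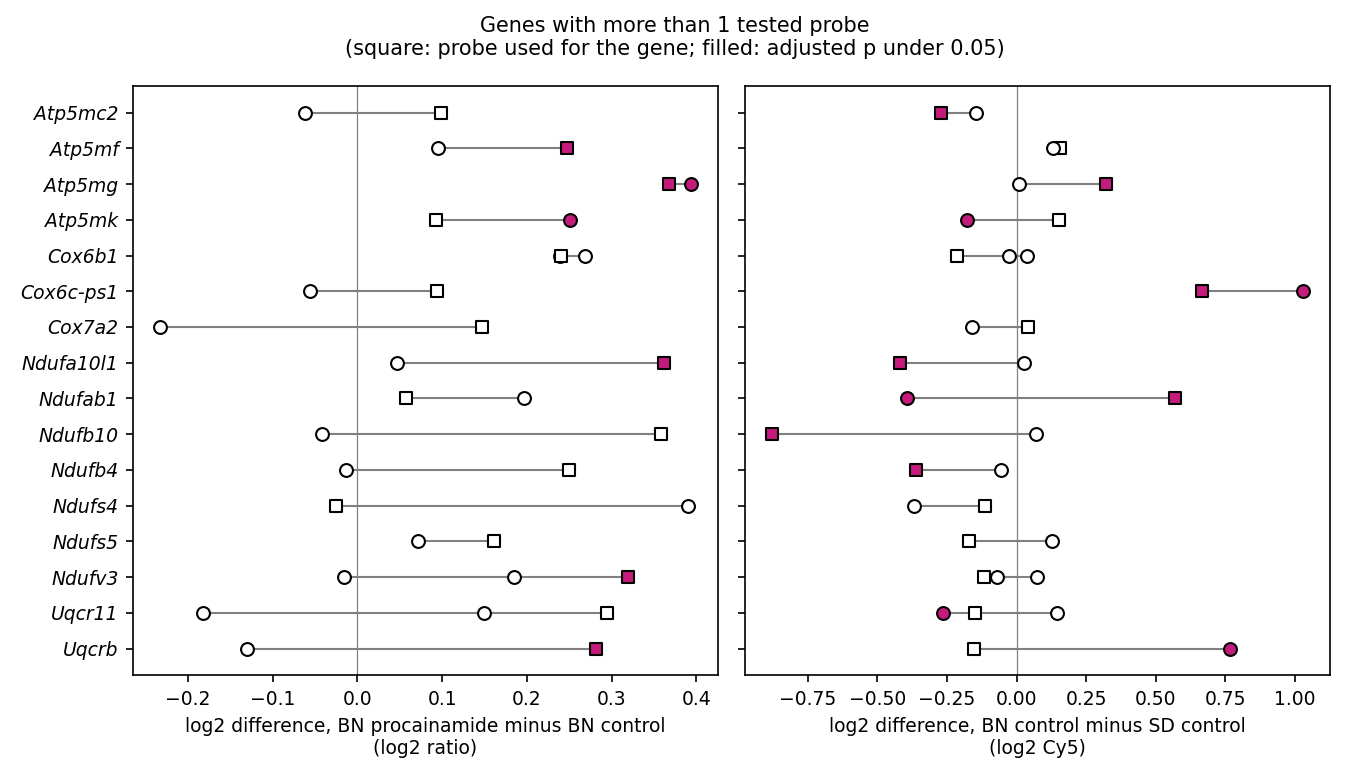
Log2 difference of each tested probe for the 16 subunit genes with more than 1, for the BN response (left, log2 ratio) and for BN against SD untreated (right, log2 Cy5); squares are the probes used for the gene and filled symbols are called. The 2 probes of Ndufb10 (-0.88 and 0.069) and of Ndufab1 (0.57 and -0.39) lie far apart in untreated blood, while those of Atp5mg lie together in the BN response.

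Other genes of respiration were followed as lists. Over all named genes 8.99% rose and 13.8% fell in the BN response. Of 12 measured genes for electron carriers and for nucleotide or phosphate transport, 6 rose and 0 fell (median 0.22). Their estimates lay above 0 for 10 and below 0 for 2, the lowest being Etfb at -0.47. The outer membrane channel Vdac2 rose by 0.45 ± 0.12 (SE), the adenine nucleotide carrier Slc25a4 by 0.35 ± 0.095 and the uncoupling protein family member Ucp2 by 0.42 ± 0.13 (limma adjusted p = 0.00993, 0.0132 and 0.0241). In SD 0 of these 12 were called. In the strain difference 2 of them, Ucp2 (0.74) and Slc25a4 (0.44), were higher, against 3.15% of all named genes. Of 16 genes for pyruvate dehydrogenase and the citric acid cycle, 2 rose and 0 fell in BN (median 0.10). The acetyl transferase of pyruvate dehydrogenase (Dlat) rose by 0.45 ± 0.11 (SE, limma adjusted p = 0.00788). Citrate synthase (Cs) rose in SD, by 0.36 ± 0.078 (limma adjusted p = 0.018). Of 16 regulators of mitochondrial gene expression 3 rose and 0 fell in BN, with 5 estimates below 0 (lowest Esrra, -0.21). The coactivator Ppargc1b was highest at 0.66 ± 0.097 (limma adjusted p = 0.00023). In SD 1 rose, Ppargc1b again, at 0.43 ± 0.087 (limma adjusted p = 0.0132). Gabpb1, a partner of the ETS factor GABP, was at 0.39 in BN, and the mitochondrial polymerase subunit Polg2 at 0.28.

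Of 38 assembly factors, the complex I factor Ndufaf1 (0.51 ± 0.098) and the complex II factor Sdhaf2 (0.36 ± 0.095) rose and the complex III factor Uqcc2 (-0.39 ± 0.12) fell in BN, with 0 of 38 called in SD. Of 67 mitochondrial ribosomal protein genes 5 rose and 1 fell in BN (8.99% and 13.8% over all named genes), led by Mrpl37 (0.52) and Mrpl47 (0.54), with Mrps11 at -0.47, and 0 were called in SD. The BN medians of the assembly factors and the ribosomal genes were 0.074 and 0.015. In untreated blood 11 of 38 assembly factors and 16 of 67 mitochondrial ribosomal genes were lower in BN and 3 of each list were higher, against 20.5% lower and 16.3% higher over all named genes. Subunits encoded in mitochondrial DNA were not measured by any matched probe.

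Cell type markers moved with the BN response as well. Of 4 eosinophil markers 3 fell (median -1.85), of 5 platelet markers 4 fell (median -0.59), and of 8 erythroid markers 0 were called while all 8 estimates lay below 0 (median -0.45). Of 9 neutrophil markers 1 rose (Mmp9, 0.97) with 7 estimates above 0 and 2 below (median 0.76). In SD 0 of these 9 were called, with 2 estimates above 0 and 7 below (median -0.18). Of 8 monocyte markers 1 rose in BN (Lyz2, 1.29) with 5 estimates above 0 and 3 below (median 0.10). Of 5 NK cell markers 1 rose in BN (Nkg7, 0.72), with 3 estimates below 0 (median -0.073). T cell markers (7) gave 0 calls in BN and a median of 0.12, and 1 of 3 B cell markers fell (Cr2, -0.67). In SD, 2 of 5 proliferation markers rose (median 0.57) and 1 of 5 NK cell markers rose (Nkg7, 0.49) while the other 4 estimates lay below 0 (list median -0.20). Of the 8 erythroid markers in SD, 0 were called and 3 estimates lay above 0 (median -0.61), and of the 5 platelet markers 0 were called and all 5 estimates lay below 0 (median -0.43). Eye markers, read because of the sampling site, gave 1 fall of 3 in BN (Crybb2, -0.37). The summed Cy5 level of the erythroid list was 18.1 to 19.5 (log2) in BN controls, 18.1 to 18.8 in treated BN, 18.7 to 19.0 in SD controls and 18.4 to 18.9 in treated SD arrays. Shares of cell types were not measured, and their part in the subunit differences was not tested.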

How the data were processed

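RNA from 18 rat blood samples was measured on 2-colour arrays of 62976 spots (design 028279, per the file headers). The deposited scanner files give median spot and background intensity in each channel, unnormalized, made with Feature Extraction 10.7.1.1 per the file headers, and the log10 ratio of that software, per the file headers. The authors' deposited value table, in log2, equals the scanner log ratio of Cy5 over Cy3 (slope and correlation of about 1 on each array, column medians -0.014 to 0.065), so its scale and direction are known. Whether any centring was applied beyond the scanner's is not given in the sources used here.

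Intensities were corrected with normexp (offset 50) and loess within arrays in limma 3.58.1 (R 4.3.3), and spots of a probe were averaged without outlier flags. Of 30367 probes, 18355 had 1 symbol through RefSeq transcripts, and 26446 were tested, being well above background in Cy5 on at least 4 arrays, for 13616 named genes. A gene is its probe of highest mean log2 intensity. Group means were fitted over all 18 arrays (14 residual degrees of freedom) with Benjamini-Hochberg adjustment over all probes at 0.05. Drug responses and their difference used log2 ratios, and untreated strains used log2 Cy5 after loess and Aquantile. Fit scripts were tested on simulated data. Array number and signal over background limit the precision. Replicate numbers did not pair samples (correlations of deviations -0.52 to 0.13). Alternatives changed background, scaling, filter, probe rule, scan day, slide, brightness, replicate block, groups fitted and single arrays. The within-slide, Cy5-alone and pseudogene alternatives were added after the data were seen. Values on every array are given for the called members of smallest p in each complex (up to 3, or 5 in complex I). They are also given for those called in SD or in the strain difference and for the lowest in each comparison. The 6 of smallest p in untreated blood and pairs of tissue forms were included. For the c ring genes Atp5mc1 and Atp5mc2 only the estimates are given. Members and lists were chosen with earlier results of these data known. Not every called gene of the pathway lists is reported here.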

Additional observations from a re-analysis of the deposited data

Results flagged for a closer look

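Among 36 members and other measures checked in each of the 4 groups (144 groups of arrays), a single array stood apart from its group in 4 cases, and chance gives about 1 in 20. Cox7b was at 0.24 on BN control array 1, with the nearest other control at 0.0071. Cox8b was at -0.48 on BN procainamide array 1, with the nearest other at -0.58, where no array of the group was well above background. Cox8a was at -0.060 on BN control array 3, with the nearest other at 0.067. Ndufa4 was at -0.20 on the same array, with the nearest other at 0.011.

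The response differed between the strains, by the test of the difference itself, for Ndufa1 (BN minus SD 0.56, log2) and Cox7c (0.68). Scan day moved with these groups, and its part was not tested beyond the fit with scan day as a term. That fit takes the day effect from the SD procainamide arrays alone.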

How the results depend on the processing

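The BN response had 17 of 76 members called. The count was 0 with scan day and 0 with brightness as a term, 4 with the BN groups alone and 27 on the Cy5 signal alone. It was 10 to 20 when single arrays were left out, with 10 without BN procainamide array 2. Over all 26446 probes, 209 were called with scan day, 685 with brightness and 2801 with the BN groups alone. On the Cy5 signal alone 10184 probes were called, and without BN procainamide array 2 it was 4422. The median over all members ran from 0.068 to 0.20, but complex medians fell to 0.0011 in complex I with scan day, and to -0.096, -0.020 and 0.00085 in complexes II, IV and V on the Cy5 signal alone. The SD median was 0.24 with median centring. On the Cy5 signal alone Cox5a (-0.00029), Atp5mg (-0.17) and Atp5pb (-0.037) turned. The SD response (2 called) had 1 on the deposited ratios, 1 with probes well above background on all arrays and 1 with scan day. It had 0 within slide 1 and 0 to 3 with single arrays left out, 0 being without SD control array 2. Over all probes, 638 of 23763 were called on the deposited ratios and 714 of 21788 with probes well above background on all arrays. With scan day, within slide 1 and without SD control array 2, the calls were 254, 344 and 234 of 26446 probes. The strain difference (2 called) had 0 on scanner ratios, 0 on deposited ratios, 0 with scan day, 0 with brightness, 14 on the Cy5 signal alone and 1 to 4 with single arrays left out, 1 being without BN control array 4 or BN procainamide array 2. Over all probes, 2538 of 26446 were called on scanner ratios, 2213 of 23763 on deposited ratios and 9110 of 26446 on the Cy5 signal alone. With scan day no probe was called, and with brightness 6 of 26446. Without BN control array 4 or BN procainamide array 2 the probes called were 1882 and 2477. The median strain difference over members turned to -0.030 with median centring and -0.090 with scan day. Untreated strains (21 called) gave 0 with scan day, 7 with slide as a random block and 2 with brightness. Over all 26446 probes these fits called 372, 4555 and 2780. With single arrays left out 15 to 24 members were called, and Cox7c turned to 0.011 with scan day. All counts of 0 are from limma, with 5 and 14 members at an unadjusted p under 0.05 for scan day and brightness in BN, 21 within slide 1 and 9 without SD control array 2 in SD, 7, 7, 1 and 1 in the strain difference, and 5 in untreated blood. The causes were not tested.

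With the replicate number as a block, which does not pair these samples, 9 members were called in the BN response. The SD response had 0 (10 at an unadjusted limma p under 0.05). The strain difference had 2, of which 1 was called without the block. Over all 26446 probes the same 3 fits called 3581, 128 and 1364.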
